A study of Mus musculus with 10 samples.

Results

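The matricellular genes code for secreted proteins that sit in the extracellular matrix and act on the cells around them. Most of them do so rather than build the matrix itself, whereas fibronectin (Fn1) is also a scaffold of it. In total, 10 genes were listed by name (Tnc, Tnxb, Thbs1, Thbs2, Sparc, Sparcl1, Postn, Fn1, Spp1 and Tgfbi), and 9 of them had at least 1 probe set annotated to that gene alone, of 18193 such genes on the array. Spp1, which codes for osteopontin, had none and was not analysed here. The 9 genes were read by 19 probe sets, and the probe set with the highest mean over the 10 arrays stood for its gene. RNA came from mammary tumors that arose spontaneously in female Tg-neu mice (FVB/N-Tg(MMTVneu)). In these mice the MMTV promoter drives the neu proto-oncogene in the mammary epithelium. From the onset of a first tumor, mice received intraperitoneal lovastatin (Lov; 10 mg/kg), an inhibitor of HMG-CoA reductase, or the ethanol vehicle (Vhcl), 3 times per week for 6 weeks. All mice of both groups carried the transgene, and each array held 1 whole tumor: A45, A49, A54, A59 and AB11 from the Vhcl group and A19, A48, A50, A55 and AB10 from the Lov group. Another text field of the controls calls them not treated, and they are taken here as vehicle controls. The age of the mice is not given in the labels.

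Tenascin C (Tnc) and tenascin X (Tnxb) belong to a family of large glycoproteins. Tenascin C is scarce in most adult tissues and returns in healing wounds and in tumor stroma, where it loosens the adhesion of cells to fibronectin, whereas tenascin X binds collagen fibrils. The thrombospondins bind CD36, CD47 and integrins, and thrombospondin 1 can also activate latent TGF-beta. SPARC and its homolog SPARC-like 1 bind collagen, periostin and the TGF-beta-induced protein link collagens to integrins, and fibronectin is the scaffold on which several of the others assemble. In mammary tumors these proteins are made in large part by fibroblasts and other stromal cells, and in RNA from whole tumors fewer cells of a type and less RNA per cell cannot be told apart.

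The 250 bases before the transcription start site are shown for Tnc, for Thbs2 and Tgfbi, whose signals went with that of Tnc over the tumors, and for Sparc, whose group means lay in the opposite order. The sequences are from RefSeq (mouse build GRCm38.p6) and run 5′ to 3′ on the strand of the gene. The windows are chr4:64047016-64047265 for Tnc, chr17:14694263-14694512 for Thbs2 and chr11:55420081-55420330 for Sparc, all on the minus strand, and chr13:56609336-56609585 for Tgfbi on the plus strand. Capitals mark the letters of a motif.
Tnc: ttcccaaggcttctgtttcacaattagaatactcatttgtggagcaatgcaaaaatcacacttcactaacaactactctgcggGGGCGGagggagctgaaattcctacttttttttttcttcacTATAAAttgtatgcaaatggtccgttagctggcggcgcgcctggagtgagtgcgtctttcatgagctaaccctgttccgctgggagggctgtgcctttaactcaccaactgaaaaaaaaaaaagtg
Thbs2: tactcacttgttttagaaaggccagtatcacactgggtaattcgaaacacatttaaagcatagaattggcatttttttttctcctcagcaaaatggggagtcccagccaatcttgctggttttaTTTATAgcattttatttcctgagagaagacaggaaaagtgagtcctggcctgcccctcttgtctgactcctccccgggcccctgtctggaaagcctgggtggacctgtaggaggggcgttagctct
Tgfbi: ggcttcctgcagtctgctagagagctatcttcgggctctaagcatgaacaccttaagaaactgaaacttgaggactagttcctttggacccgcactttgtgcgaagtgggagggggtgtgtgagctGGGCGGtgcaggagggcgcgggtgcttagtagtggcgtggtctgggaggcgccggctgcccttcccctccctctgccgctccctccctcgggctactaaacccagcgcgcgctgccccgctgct
Sparc: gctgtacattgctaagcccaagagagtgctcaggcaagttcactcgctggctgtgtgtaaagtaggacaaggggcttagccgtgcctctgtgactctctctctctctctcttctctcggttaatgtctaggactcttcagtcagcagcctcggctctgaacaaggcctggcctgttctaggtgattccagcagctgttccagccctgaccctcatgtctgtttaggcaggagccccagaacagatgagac
The letters of a TATA box (TATAAA) began 126 bases before the Tnc start site, and those of a GC box (GGGCGG) began 167 bases before it. RefSeq holds another Tnc start site downstream of it, from which the same letters lie 205 and 246 bases away. The window of that other site also holds the letters tatataag close to its end, which the search for the exact letters TATAAA does not match. The Thbs2 window held the TATA box letters 126 bases before its start site on the opposite strand. In the Tgfbi window a GC box began 124 bases before the start site. The Sparc window held none of the motifs searched. Both strands were searched for 6 motifs, and the share of 32536 mouse windows of the same length that held them was 12.3% for the TATA box, 33.0% for the GC box, 6.73% for AP-1 (TGANTCA), 12.6% for TEAD (GGAATG), 7.04% for STAT (TTCNNNGAA) and 16.7% for the hypoxia response core (ACGTG). A match is a run of letters and no measure of binding. Of the 9 genes measured, 6 matched an entry of the promoter table used.

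The arrays resembled each other closely, with a correlation over all probe sets of 0.969 to 0.990 between pairs of tumors and a median log2 signal of 4.97 to 5.05. The Vhcl tumors were less alike (0.972 to 0.980) than the Lov tumors (0.981 to 0.990), and pairs across the groups were at 0.969 to 0.987. Of the markers of mammary epithelium, 12 of 12 had a mean over the 10 tumors above the median of all probe sets (5.02). Krt19 was below that median in all Lov tumors (4.67 to 4.95) and in Vhcl A45 (4.79) and A54 (4.27). The mean log2 signal of Epcam was 12.38 in Vhcl tumors and 12.42 in Lov tumors. Single tumors stood apart in markers of neighboring tissues, and most of these markers had lower means in the Lov group. The summed log2 level of 8 salivary gland markers was 15.43 in Vhcl AB11 and 12.31 to 13.33 in the other tumors. In those it was set largely by Aqp5, at 12.01 to 12.97 over all tumors. Bpifa2 was at 13.73 in Vhcl AB11, 9.09 in Vhcl A59, 6.82 in Lov A19 and 3.12 to 3.59 in the rest. Dcpp1 was at 10.68 in Vhcl AB11, 10.54 in Vhcl A59, 8.04 in Vhcl A45 and 4.32 to 6.38 in the rest. The summed level of 7 skeletal muscle markers was 11.57 to 11.79 in Vhcl A54, Vhcl A59 and Lov A55 and 7.03 to 8.74 in the others. Of the 8 salivary gland markers, 7 were lower in the Lov group (median log2 difference -2.4). At 2-fold with an unadjusted limma p under 0.02, 3 were lower, beside 0.264% of all genes. All 7 muscle markers were lower (median -1.03). The summed levels differed by -0.53 (exact permutation p = 0.492) and -1.11 (0.373). The part of these tissues in the results was not tested. The log2 difference between the 3′ and 5′ signals of beta-actin, a sign of RNA degradation, was 0.80 to 1.35 in Vhcl tumors and 0.67 to 1.07 in Lov tumors. Values without Lov A19 and Vhcl AB11 and, as an alternative added after seeing the data, without the 3 tumors high in muscle markers are given with the results.

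To compare the matricellular genes between treatments, each probe set was tested with limma over all 45037 probe sets. Tnc, Tgfbi and Thbs1 had lower means in the Lov group (unadjusted p under 0.05) and Sparc had a higher one, whereas Tnxb, Thbs2, Sparcl1, Postn and Fn1 did not reach that level. No gene passed an adjusted p of 0.05, among the 9 or among all 18193 (0.0%). The lowest adjusted p of any probe set was 0.369, and 2379 probe sets had an unadjusted limma p under 0.05. When a change of at least 2-fold and an unadjusted p under 0.02 were asked for together, 1 of 9 genes (Tnc) was lower, beside 0.264% of all genes, and 0 were higher, beside 0.159%. At an unadjusted p under 0.05 alone, 3 of 9 were lower, beside 2.75% of all genes, and 1 was higher, beside 3.5%. The log2 difference was negative for 8 of 9 genes with a median of -0.52, whereas over all genes it was negative for 49.3% with a median of 0.00. Because the genes vary together over the tumors, as described further on, these counts are not independent of one another. The genes were also chosen with earlier results of these data known, so the shares beside them are no test of the group. The labels do not say whether each tumor came from a different mouse, so p-values measure the spread between these tumors, and the number of arrays limits the precision.

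**Figure D1:**
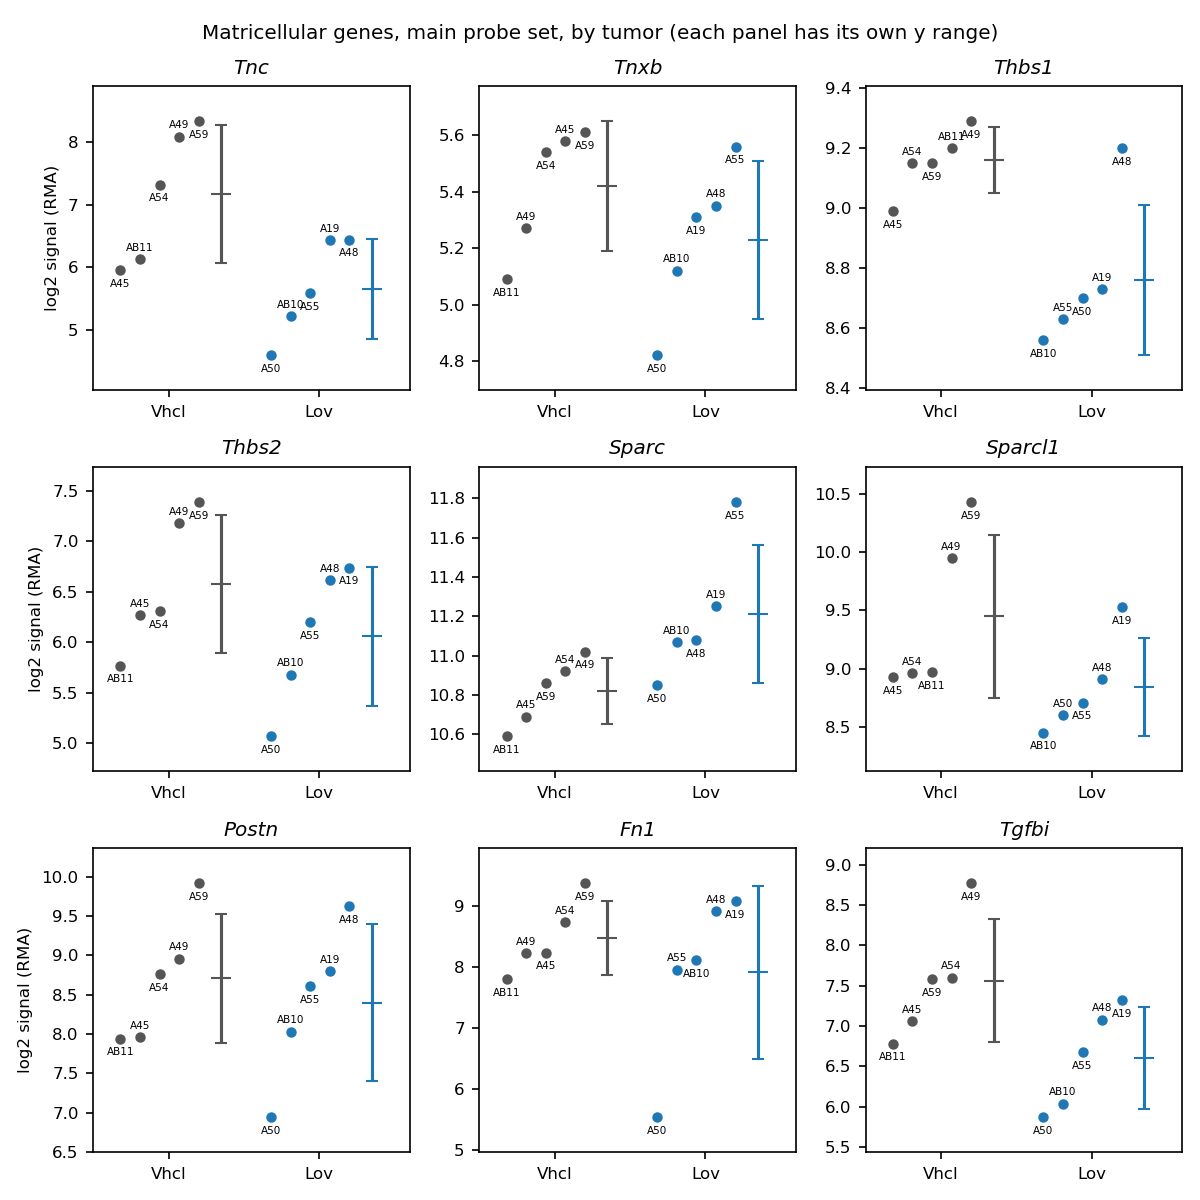
Log2 signal (y axis, RMA) of the main probe set of each matricellular gene in the 5 Vhcl and 5 Lov tumors (x axis); each point is 1 tumor with its label, and the bar is the mean ± SD of the group. For Tnc, 3 Lov tumors lay below all Vhcl tumors, and Lov A50 was the lowest tumor for 6 of the 9 genes.

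Of the tenascins, Tnc had the wider difference between the group means, and the genes were not tested against each other. The log2 signal of Tnc (probe set 1416342_at) was 5.95, 8.09, 7.32, 8.34 and 6.13 in Vhcl A45, A49, A54, A59 and AB11, and 6.43, 6.44, 4.59, 5.59 and 5.22 in Lov A19, A48, A50, A55 and AB10. The groups overlapped: A49, A54 and A59 were above every Lov tumor, and A50, A55 and AB10 were below every Vhcl tumor, while A45 and AB11 lay among the Lov tumors. The mean was 7.17 ± 1.10 for Vhcl and 5.65 ± 0.80 for Lov (SD, n = 5), a log2 difference of -1.51 with a standard error of 0.51 and a 95% interval of -2.62 to -0.40, or 2.85-fold lower. In an exact permutation test, 2-sided over 252 assignments of the tumors, p was 0.0476, where the smallest possible value is 0.00794, and limma's adjusted p was 0.919.

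The other Tnc probe set (1456344_at) had a mean below the median of all probe sets. Its log2 signal was 3.02, 5.42, 3.07, 4.06 and 2.91 in the Vhcl tumors, in the order above, and 2.77, 3.21, 2.77, 2.83 and 3.09 in the Lov tumors. Thus A49 and A59 were again the highest tumors, and the other 8 were close together. Here the log2 difference was -0.76 with a standard error of 0.41 (exact permutation p = 0.151), a smaller difference on a dimmer probe set. Tnxb (1450798_at) ranged from 5.09 to 5.61 in Vhcl tumors and from 4.82 to 5.56 in Lov tumors, with a log2 difference of -0.19 and a standard error of 0.15 (exact permutation p = 0.317; limma adjusted p = 0.986).

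Lov A19 had the highest summed endothelial marker level (9.99), and Vhcl AB11 had the high salivary gland level given above. Vhcl A59, with the highest Tnc signal and with the salivary marker Dcpp1 at 10.54 beside 10.68 in AB11, was kept. Without Lov A19 and Vhcl AB11 the log2 difference of Tnc was -1.96. When 1 tumor at a time was left out, it lay between -1.82 without Vhcl A45 and -1.22 without Vhcl A59. With the beta-actin value of each tumor as a covariate it was -1.15, and its unadjusted limma p was then 0.0504. Without Vhcl A54, Vhcl A59 and Lov A55, the tumors high in muscle markers, it was -1.05 with a standard error of 0.61, and none of the 9 genes reached an unadjusted p under 0.05 with the 7 tumors that remained.

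**Figure D2:**
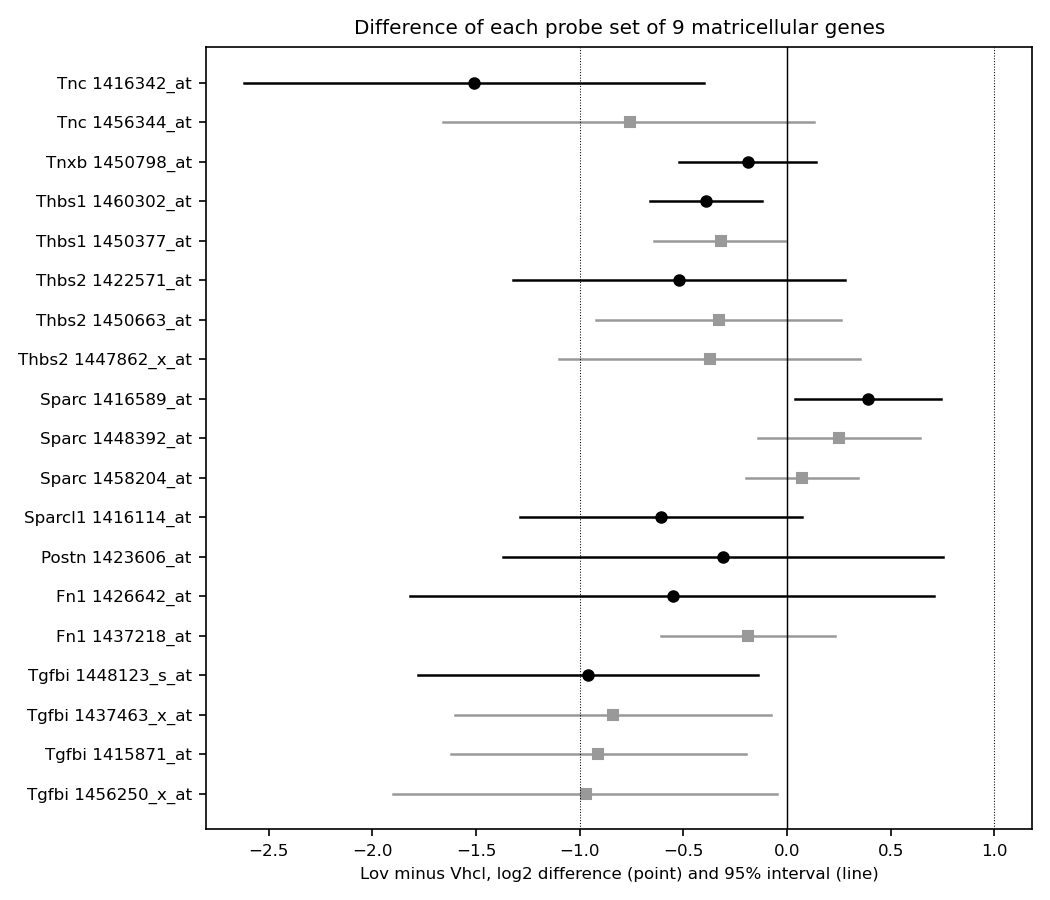
Log2 difference, Lov minus Vhcl (x axis), of the 19 probe sets of 9 matricellular genes (y axis); points are limma estimates, lines are 95% intervals, black circles are the main probe sets and gray squares are the others. The interval of the main probe set lies below 0 for Tnc, Thbs1 and Tgfbi and above 0 for Sparc.

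Tgfbi, which codes for a matrix protein first found as a product of TGF-beta signaling, was read by 4 probe sets, all of them lower in the Lov group. The main one (1448123_s_at) had a log2 signal of 7.06, 8.77, 7.60, 7.58 and 6.78 in Vhcl A45, A49, A54, A59 and AB11, and of 7.32, 7.08, 5.87, 6.68 and 6.04 in Lov A19, A48, A50, A55 and AB10. As for Tnc, A49, A54 and A59 were above every Lov tumor and A50, A55 and AB10 were below every Vhcl tumor. The log2 difference was -0.96 with a standard error of 0.37 (95% interval -1.78 to -0.14), or 1.95-fold lower, with an exact permutation p of 0.0714 and a limma adjusted p of 0.932. The other 3 probe sets gave -0.91 (1415871_at; exact permutation p = 0.0476), -0.84 (1437463_x_at; 0.0714) and -0.97 (1456250_x_at; 0.0873). Without Vhcl A49, its highest tumor, the difference of the main probe set was -0.66, without Lov A50 it was -0.78 and without Lov AB10 it was -0.82, and in these cases its unadjusted limma p was above 0.05. Without Lov A19 and Vhcl AB11 it was -1.34, and without the tumors high in muscle markers it was -0.96 with a standard error of 0.52.

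The thrombospondins differed in how they were spread over the tumors. Thbs1 (1460302_at) had a log2 signal of 8.99, 9.29, 9.15, 9.15 and 9.20 in Vhcl A45, A49, A54, A59 and AB11, and of 8.73, 9.20, 8.70, 8.63 and 8.56 in Lov A19, A48, A50, A55 and AB10. The Vhcl tumors lay close together, 4 Lov tumors were below all of them, and A48 was within their range. The log2 difference was -0.39 with a standard error of 0.12 (95% interval -0.66 to -0.12), or 1.31-fold lower, with an exact permutation p of 0.0397 and a limma adjusted p of 0.919. The other Thbs1 probe set (1450377_at) also had 4 Lov tumors below all Vhcl tumors, with a log2 difference of -0.32 and a standard error of 0.14 (exact permutation p = 0.0635). Without Lov A19 and Vhcl AB11 the difference of the main probe set was -0.37, and without the tumors high in muscle markers it was -0.36 with a standard error of 0.17. A Thbs1 probe set shared with Pald1 was left out.

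Thbs2, whose product resembles thrombospondin 1 but does not activate TGF-beta, overlapped widely between the groups. Its log2 signal (1422571_at) was 6.27, 7.18, 6.31, 7.39 and 5.77 in the Vhcl tumors, in the same order, and 6.74, 6.62, 5.07, 6.20 and 5.68 in the Lov tumors. As for Tnc, A49 and A59 were the highest tumors and A50 the lowest, but A19 and A48 were above the remaining Vhcl tumors. The log2 difference was -0.52 with a standard error of 0.37 (exact permutation p = 0.254; limma adjusted p = 0.979), and the other probe sets gave -0.33 and -0.37. The difference was -0.27 without Lov A50, -0.32 without Vhcl A59 and -0.89 without Lov A19 and Vhcl AB11.

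Sparc was the only one of the 9 genes with a higher mean in the Lov group. Its product, osteonectin, is a collagen-binding protein that counters cell spreading. The log2 signal (1416589_at) was 10.69, 11.02, 10.92, 10.86 and 10.59 in Vhcl A45, A49, A54, A59 and AB11, and 11.25, 11.08, 10.85, 11.78 and 11.07 in Lov A19, A48, A50, A55 and AB10. All Lov tumors except A50 were above every Vhcl tumor, and A55 was the highest. On the log2 scale the difference was 0.39 with a standard error of 0.16 (95% interval 0.04 to 0.74), or 1.31-fold higher, with an exact permutation p of 0.0476 and a limma adjusted p of 0.932. The other probe sets gave smaller differences, of 0.25 (1448392_at; exact permutation p = 0.262) and 0.07 (1458204_at; 0.643). Without Lov A55 the difference of the main probe set was 0.25, without Lov A19 and Vhcl AB11 it was 0.32, and without the tumors high in muscle markers it was 0.30.

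Its homolog Sparcl1 (hevin) lay in the opposite direction, with overlap. The log2 signal (1416114_at) was 8.93, 9.95, 8.96, 10.43 and 8.97 in the Vhcl tumors and 9.53, 8.91, 8.60, 8.71 and 8.45 in the Lov tumors, each in the order above. Vhcl A49 and A59 were high, the other 3 Vhcl tumors were nearly equal, and all Lov tumors except A19 were below them. Between the groups the log2 difference was -0.61 with a standard error of 0.31 (exact permutation p = 0.151; limma adjusted p = 0.968). Without Vhcl A59 it was -0.36, and without Lov A19 and Vhcl AB11 it was -0.90.

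Postn and Fn1 did not differ between the groups beyond the spread of the tumors, and the size and sign of their difference changed with single tumors. Postn, which codes for periostin, a protein that aids collagen cross-linking, had a log2 signal (1423606_at) of 7.96, 8.96, 8.76, 9.92 and 7.94 in the Vhcl tumors and of 8.80, 9.63, 6.94, 8.61 and 8.03 in the Lov tumors. Fn1, which codes for fibronectin, had a log2 signal (1426642_at) of 8.23, 8.22, 8.73, 9.37 and 7.79 in the Vhcl tumors and of 9.07, 8.91, 5.53, 7.95 and 8.11 in the Lov tumors. In both genes A59 was the highest tumor and A50 the lowest, and the other tumors of the groups overlapped. The log2 difference of Postn was -0.31 with a standard error of 0.48 (95% interval -1.37 to 0.75; exact permutation p = 0.571). Without Lov A50 it was 0.06, without Vhcl A59 it was 0.00, with beta-actin as a covariate it was 0.03, and without Lov A19 and Vhcl AB11 it was -0.60. That of Fn1 was -0.55 with a standard error of 0.58 (95% interval -1.82 to 0.71; exact permutation p = 0.548). Without Lov A50 it was 0.04, without Vhcl A59 it was -0.33, with beta-actin as a covariate it was -0.03, and without Lov A19 and Vhcl AB11 it was -1.01. The other Fn1 probe set (1437218_at) had a mean below the median signal and gave -0.19.

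Since the same tumors recurred at the ends of the ranges, the covariation of the genes over the tumors was examined. Lov A50 was the lowest tumor for 6 of the 9 genes and among the lowest 3 for all 9. Vhcl A59 was the highest tumor for 6 genes and Vhcl A49 for 2 (Thbs1 and Tgfbi). Averaged over the genes, the log2 signal relative to the mean of the 10 tumors was -1.11 in A50 and 0.85 in A59. Sparc departed from this order, with its highest value in Lov A55 and its lowest in Vhcl AB11.

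**Figure D3:**
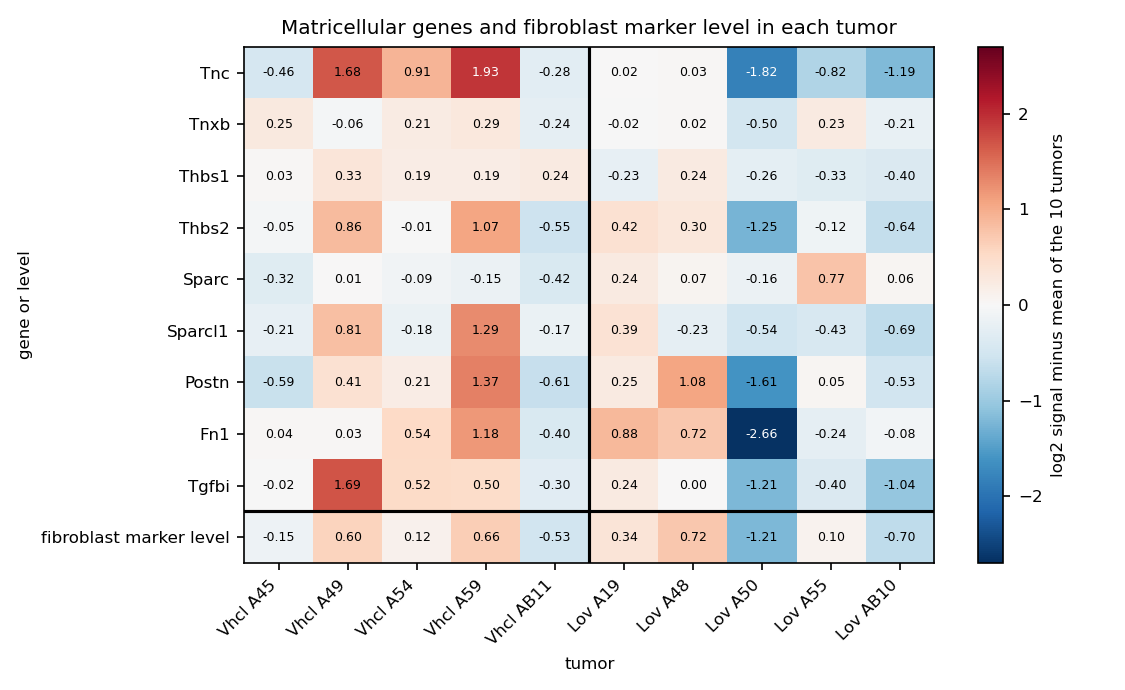
Log2 signal minus the mean of the 10 tumors (color, value in each cell) for the main probe set of 9 matricellular genes and for the fibroblast marker level (rows) in the 10 tumors (columns, Vhcl left and Lov right of the line). Lov A50 was below the mean for every gene, down to -2.66 for Fn1, while Tnc was at 1.93 in Vhcl A59 and 1.68 in Vhcl A49.

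The signal of Tnc was correlated with that of each other gene over the 10 tumors, which makes 8 relations with Benjamini-Hochberg adjustment of the permutation p over them. With Thbs2, Pearson's r was 0.90 (adjusted permutation p = 0.00221) and Spearman's rho 0.92 (0.00196). With Tgfbi, r was 0.90 (0.00221) and rho 0.94 (0.00184), and with Sparcl1 they were 0.88 (0.00221) and 0.85 (0.0084). Postn, Thbs1 and Fn1 followed with r of 0.79, 0.75 and 0.70 (adjusted permutation p of 0.0135, 0.0217 and 0.0217) and rho of 0.83, 0.75 and 0.73 (0.0096, 0.0254 and 0.0266). Tnxb, with r of 0.56 (adjusted permutation p = 0.106) and rho of 0.47 (0.204), and Sparc, with r of -0.14 (0.714) and rho of 0.02 (0.974), did not pass.

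The relations were computed again without the highest tumors and apart from the difference between the groups. Lov A50, the lowest tumor for Tnc, stayed in both, so its part in these relations was not tested. Without Vhcl A59 and A49, the tumors farthest from the median of Tnc, r was 0.95 with Tgfbi, 0.80 with Fn1, 0.77 with Thbs2, 0.72 with Postn, 0.69 with Thbs1 and 0.64 with Sparcl1. With each value taken relative to the mean of its own group, r was 0.92 with Thbs2, 0.91 with Postn, 0.84 with Tgfbi, 0.83 with Sparcl1, 0.72 with Fn1, 0.51 with Thbs1, 0.46 with Sparc and 0.45 with Tnxb. Postn thus followed Tnc closely within the groups although its group means differed little. The other Thbs1 probe set (1450377_at) had a within-group r of only 0.06 with Tnc. Among pairs without Tnc, r was 0.89 for Thbs2 with Postn (0.91 within groups), 0.86 for Postn with Fn1 (0.86), 0.86 for Thbs2 with Sparcl1 (0.84) and 0.85 for Thbs2 with Tgfbi (0.84), given as a description.

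Of all probe sets with 1 gene symbol, those most like Tnc by the same within-group r over the 10 tumors were Thbs2 (1450663_at; 0.961), Cfi (complement factor I; 0.950), Socs3 (a feedback inhibitor of cytokine signaling; 0.946), Lpl (lipoprotein lipase; 0.945) and Il18r1 (a chain of the interleukin 18 receptor; 0.945). Their log2 differences between Lov and Vhcl were -0.33, -0.29, -0.92, -0.54 and -1.12, with standard errors of 0.27, 0.17, 0.35, 0.21 and 0.58. All 5 had limma adjusted p of at least 0.928. The likeness is a description of these tumors.

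Because fibroblasts are a main source of these proteins, the genes were set beside a fibroblast marker level, the log2 of the summed linear signals of 11 markers measured of 13 listed (among them Pdgfra, Dpt, Fap, Thy1, Lum and Dcn), 10 of which had a mean above the median of all probe sets. The level was 10.10, 10.85, 10.37, 10.91 and 9.72 in Vhcl A45, A49, A54, A59 and AB11, and 10.59, 10.97, 9.04, 10.35 and 9.55 in Lov A19, A48, A50, A55 and AB10. The groups overlapped, with A50 the lowest and A48, A59 and A49 the highest tumors, and the difference of -0.29 was within the spread (exact permutation p = 0.50). None of the 11 markers passed an adjusted p of 0.05, and Cd34 alone had an unadjusted limma p under 0.05, with a log2 difference of 0.34. The tumors with the highest level were thus in both groups. A sum of linear signals weights the brightest markers most, here Col1a1, Dcn and Lum (mean log2 signal 8.59, 7.77 and 7.14 in Vhcl tumors). They and Dpt, Mfap5, Pi16 and Pdgfrl were lowest in Lov A50, at 4.02 for Dcn. In that tumor Pdgfra (5.98), Thy1 (6.37) and Fap (4.65) lay within the Vhcl range, and Cd34 (6.92) lay above it.

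**Figure D4:**
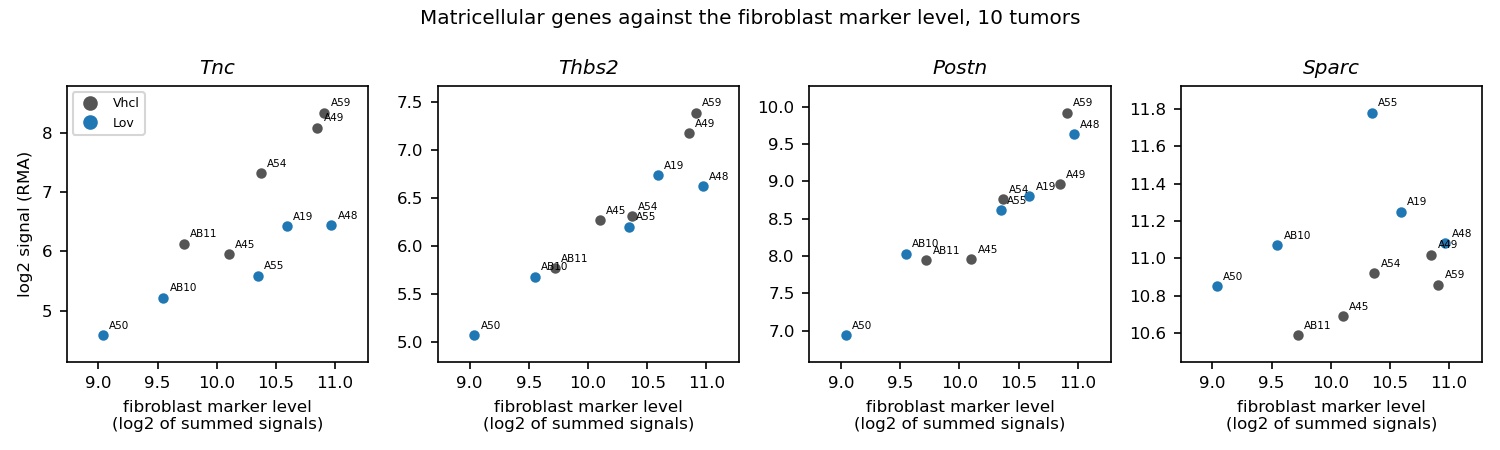
Log2 signal of Tnc, Thbs2, Postn and Sparc (y axes, RMA) against the fibroblast marker level (x axis, log2 of summed signals) in 5 Vhcl (gray) and 5 Lov (blue) tumors; each point is 1 tumor. Postn and Thbs2 followed the level over the 10 tumors (r = 0.94 each), and with values relative to the group means (0.94 and 0.95). Lov A48 had the highest level of 10.97 with a Tnc signal of 6.44, and Sparc did not follow the level (r = 0.27).

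Over the 10 tumors, 9 relations with that level were computed, adjusted over the 9. Postn had an r of 0.94 (adjusted permutation p = 0.000225) and a rho of 0.95 (0.00108), and Thbs2 had an r of 0.94 (0.000225) and a rho of 0.92 (0.0022). Fn1 had an r of 0.83 (0.00567) and a rho of 0.81 (0.0151), Tnc of 0.80 (0.00977) and 0.85 (0.00852), and Tgfbi of 0.79 (0.00977) and 0.78 (0.0184). Without Lov A50 and AB10, the tumors farthest from the median of the level, r was 0.91 for Postn, 0.87 for Thbs2, 0.71 for Fn1, 0.60 for Tnc and 0.54 for Tgfbi. Tnxb and Sparcl1 had an r of 0.71 (adjusted permutation p = 0.0334) and 0.69 (0.0339) but a rho of 0.55 (0.119) and 0.62 (0.0902), and the r of Tnxb was 0.24 without those tumors, so that it rested on them. For Thbs1 and Sparc, r was 0.55 (adjusted permutation p = 0.114) and 0.27 (0.454), and rho was 0.59 (0.0986) and 0.39 (0.263). Within groups, the fibroblast level had the highest r of the marker levels with Tnc (0.89), Thbs2 (0.95), Postn (0.94) and Tgfbi (0.84). Other levels had a higher r with Fn1 (adipocyte, 0.89 against 0.82), Tnxb (adipocyte, 0.79 against 0.69) and Sparcl1 (neutrophil, 0.91 against 0.68). The same held for Thbs1 (macrophage, 0.65 against 0.57) and Sparc (skeletal muscle, 0.60 against 0.55), all given as a description. The adipocyte level was set largely by Fabp4 and the neutrophil level by Ltf, as described further on. Col1a1, Lum and Dcn count among both the fibroblast markers and the matrix binding partners described further on.

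With the fibroblast level of each tumor as a covariate, an alternative added after seeing the data, the log2 difference of Tnc was -1.14 with a standard error of 0.26, that of Tgfbi -0.70 with 0.23, that of Thbs1 -0.34 with 0.12 and that of Sparc 0.46 with 0.15. The difference of Thbs2 became -0.23, of Sparcl1 -0.44, of Fn1 -0.16 and of Postn 0.07. None had a limma adjusted p under 0.05. The part of fibroblast content in these differences was not tested further.

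Markers of other cell types were compared in the same way. The summed log2 level did not differ between the groups beyond the spread for endothelial cells (9.28 to 9.60 in Vhcl, 9.38 to 9.99 in Lov; exact permutation p = 0.944), pericytes and smooth muscle (10.78 to 11.33 and 10.68 to 11.44; 0.770) or macrophages (11.63 to 12.10 and 11.53 to 12.27; 0.476). Neutrophil markers reached 11.18 in Vhcl A49 and 11.87 in Vhcl A59, the tumors with the highest Tnc signal, and lay between 7.25 and 8.55 in the other 8. Between the groups the level differed by -1.68 (exact permutation p = 0.0794). This level was set by Ltf, which codes for lactoferrin, a protein that mammary epithelium also secretes, at 11.09 and 11.81 in these tumors. Ltf was the only one of the 8 neutrophil markers measured that had a mean above the median of all probe sets. The part of the cells behind this level in the Tnc result was not tested. Adipocyte markers (5 measured of 7, 1 of them above the median signal) had a summed level of 8.13 to 8.96 in Vhcl and 7.03 to 8.77 in Lov tumors, a difference of -0.59 (exact permutation p = 0.103), with Lov A50 the lowest and Vhcl A59 the highest tumor, as for Tnc. This level was set largely by Fabp4, a fatty acid binding protein gene, with a mean log2 signal of 8.12 in Vhcl tumors beside 5.07 for Adipoq. Fabp4 also had the lowest p of them, with a log2 difference of -0.86 and a standard error of 0.37. Over the 10 tumors, the within-group r with Tnc was 0.89 for the fibroblast level, 0.81 for the neutrophil level and 0.76 for the pericyte and smooth muscle level. It was 0.74 for myoepithelial, 0.66 for adipocyte, 0.59 for macrophage and 0.54 for endothelial markers, and -0.43 to 0.26 for the other lists. These values are given as a description, and the part of the cell types other than fibroblasts in the Tnc result was not tested.

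The genes around the matricellular proteins were then followed in 4 lists, of other matricellular genes, receptors, TGF-beta signaling and matrix binding partners, with 81 genes measured in all. None passed an adjusted p of 0.05 in limma. At an unadjusted p under 0.05, 9 of the 81 were lower in the Lov group and 4 were higher, beside 2.75% and 3.5% of all genes. The lists too were written with earlier results of these data known, so these shares are no test of them. When 1 tumor at a time was left out, the lower count ranged from 6 to 10 and the higher count from 2 (without Vhcl A45, Vhcl A59, Lov A48, Lov A50 or Lov A55) to 8 (without Vhcl A54).

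Among 31 other matricellular genes, 18 had a negative and 13 a positive difference, with a median of -0.09. Ccn1, which codes for an integrin-binding protein also known as CYR61, was lower. Its log2 signal was 7.34, 8.52, 8.59, 8.87 and 8.0 in Vhcl A45, A49, A54, A59 and AB11 and 7.88, 7.23, 7.32, 7.12 and 7.54 in the Lov tumors, in the order above. All Vhcl tumors but A45 were above every Lov tumor, and the log2 difference was -0.85 with a standard error of 0.26. Matn2, which codes for matrilin 2, had a difference of -1.12 with a standard error of 0.43. On the other side were Ltbp2, a member of the latent TGF-beta binding protein family that binds fibrillin (1.07 ± 0.35 SE), the SPARC relative Smoc2 (0.85) and Fbln2, which codes for fibulin 2 (0.63). Ltbp2 was the only one of these genes to reach 2-fold with an unadjusted p under 0.02, at 8.79, 9.53, 10.89, 9.14 and 10.48 in the Vhcl tumors and 10.88, 10.74, 10.43, 11.14 and 11.00 in the Lov tumors. Thus 3 Vhcl tumors were below every Lov tumor, and A54 and AB11 were within the Lov range.

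Of 20 receptors, 8 had a negative and 12 a positive difference, with a median of 0.05. Cd44, a receptor for hyaluronan that also binds osteopontin, was 2.13-fold lower in the Lov group, with a log2 difference of -1.09 and a standard error of 0.40. Its log2 signal was 10.14, 9.91, 9.07, 9.78 and 8.69 in Vhcl A45, A49, A54, A59 and AB11 and 9.92, 8.46, 8.03, 8.06 and 7.67 in Lov A19, A48, A50, A55 and AB10. All Lov tumors except A19 were below every Vhcl tumor. Cd47, a receptor of thrombospondin 1, and the integrin chain Itga3 each had a difference of -0.41, and the integrin chain Itgb5, which pairs with the alpha v chain, had a difference of 0.64 with a standard error of 0.21. Itgav itself, the alpha v chain, was at -0.04.

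Among 17 genes of TGF-beta signaling, 8 had a negative and 9 a positive difference, with a median of 0.07. The ligand Tgfb3 (-0.61), the coreceptor Tgfbr3 (-0.38) and the transcription factor Bhlhe40 (-0.43) were lower at an unadjusted p under 0.05, and 0 genes were higher. The ligand Tgfb1 was at -0.28 with a standard error of 0.18.

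Of 13 matrix binding partners, 10 had a negative and 3 a positive difference, with a median of -0.44. The proteoglycan gene Vcan (versican) was 2.0-fold lower, with a log2 signal of 6.11, 6.59, 5.94, 6.74 and 4.91 in Vhcl A45, A49, A54, A59 and AB11 and of 5.75, 5.50, 4.61, 4.95 and 4.47 in Lov A19, A48, A50, A55 and AB10. All Vhcl tumors except AB11 were above every Lov tumor, and the log2 difference was -1.0 with a standard error of 0.35. The collagen genes Col1a1 (-0.57 ± 0.52 SE) and Col3a1 (-0.55 ± 0.52 SE) and the collagen cross-linking enzyme gene Lox (-0.51 ± 0.45 SE) had unadjusted p-values above 0.05 in limma.

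**Figure D5:**
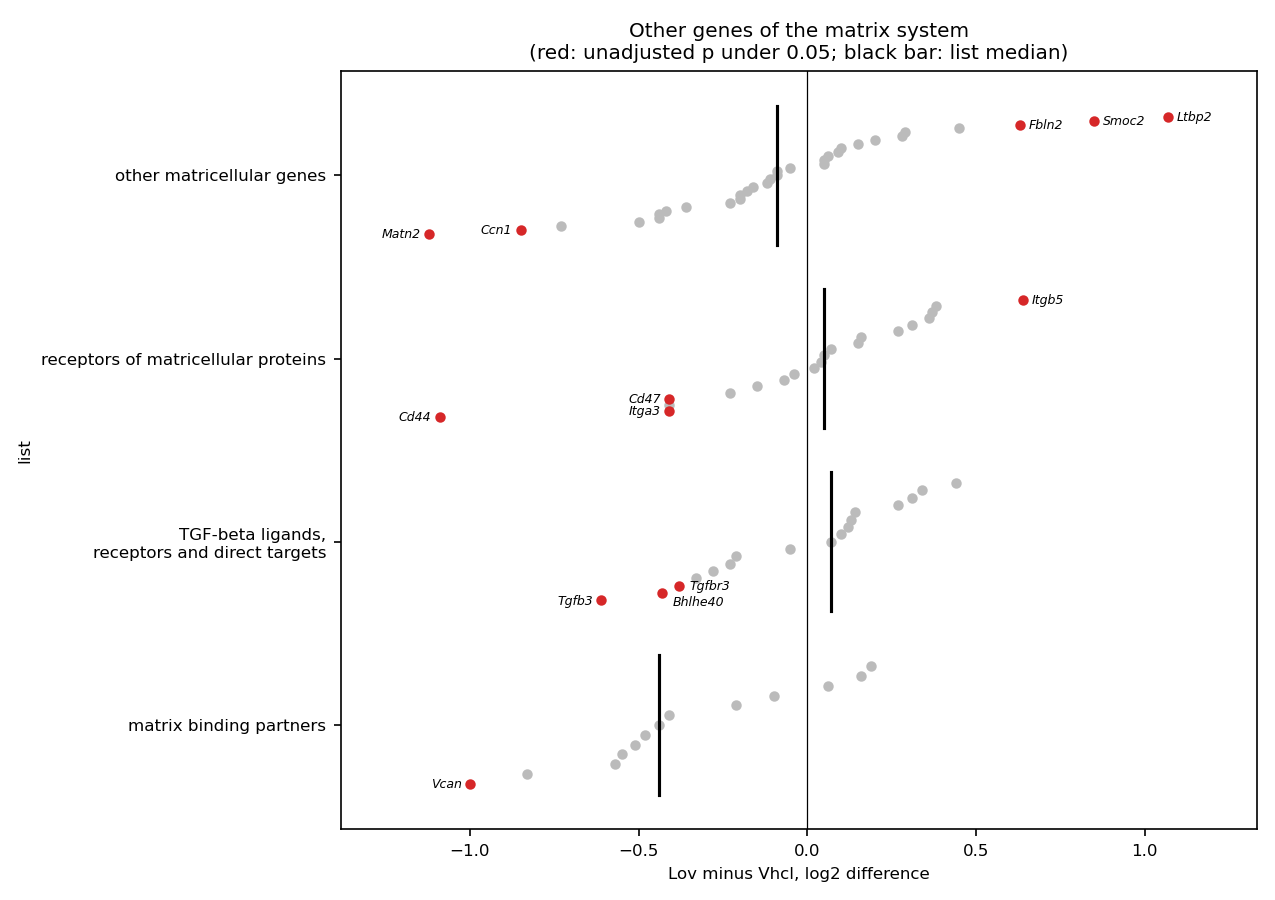
Log2 difference, Lov minus Vhcl (x axis), of each measured gene of 4 lists around the matricellular proteins (y axis); each point is 1 gene, red points had an unadjusted limma p under 0.05, and the black bar is the median of the list. Cd44, Vcan and Matn2 lie at or below -1.0 and Ltbp2 at 1.07, while the medians run from -0.44 to 0.07.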

How the data were processed

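Total RNA of 10 tumors was hybridized to 1 Affymetrix mouse array each. The deposited values are log2 signals that the authors made by Robust Multi-array Analysis (RMA) with the affy package, per the submitters' processing notes, whose version is not given in the sources used here. They were used as deposited. Arrays carry no sequencing depth, and the spread between tumors gives the precision.

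Tumors were grouped by their treatment labels. After leaving out 64 control probe sets, 45037 were fitted with limma 3.58.1 in R 4.3.3 (lmFit and eBayes, default settings, prior degrees of freedom 3.61), with 2-sided p-values adjusted by Benjamini-Hochberg over every probe set fitted. Gene names came from the platform annotation, updated by Entrez ID: 34945 probe sets had 1 symbol, of which 34741 matched, 932 had several and 9160 none. RMA summarizes several probes into a value. Apart from that, x_at and s_at probe sets may also read related transcripts. Exact permutation tests enumerated 252 assignments, and correlations used 100000 permutations (SciPy 1.17.1). Members and lists were chosen with earlier results of these data known. Named beyond the members were list genes at an unadjusted p under 0.05, at most 5 per list, the first or lowest-p markers of a cell type, and the 5 probe sets most like Tnc within groups. Itgav, Tgfb1, Col1a1, Col3a1 and Lox were named outside this rule, after their values were seen. So were Ltf, Krt19, Aqp5, Bpifa2 and the fibroblast markers given. Covariation was planned for 9 genes with Tnc and computed for 8, since Spp1 had no probe set of its own. Alternatives were a trended and robust prior, array weights, no moderation, a further quantile normalization, median centering, a filter on dim probe sets, the mean of a gene's probe sets, the tumor ID prefix, the beta-actin 3′ minus 5′ value or the fibroblast level as a covariate, and leaving out tumors. The fit was tested on simulated data.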

Additional observations from a re-analysis of the deposited data

Results flagged for a closer look

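In 38 groups of 5 tumors, 1 for each of the 19 probe sets and treatments, 2 held a tumor set apart from the others by a gap larger than 0.71 of the range of the group, and chance alone flags about 1 group in 20. Thbs1 (1460302_at) was at 9.20 in Lov A48, with the nearest Lov tumor at 8.73, a gap of 0.734 of the range. This tumor was the one that overlapped with the Vhcl group, and without it the log2 difference of Thbs1 was -0.50 in place of -0.39. Sparc (1458204_at) was at 6.74 in Lov AB10, with the nearest Lov tumor at 6.33, a gap of 0.759 of the range, whereas the main Sparc probe set was at 11.07 in that tumor, within the Lov range.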

How the results depend on the processing

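Each difference was recomputed under 22 alternatives, of which 20 were planned and 2 were added after seeing the data. The adjusted p stayed above 0.05 for all 9 genes under all of them, with a lowest value of 0.316 for Tnc. Tnc (-1.96 to -1.05), Tgfbi (-1.34 to -0.66), Thbs1 (-0.50 to -0.34), Thbs2 (-0.89 to -0.23), Sparcl1 (-0.90 to -0.36), Tnxb (-0.29 to -0.08) and Sparc (0.24 to 0.48) kept their sign. Postn turned to 0.03 with beta-actin and to 0.07 with the fibroblast level as a covariate and to 0.06 without Vhcl A54, Vhcl A59 and Lov A55, and leaving out 1 tumor gave -0.61 (without Lov A48) to 0.06 (without Lov A50). For Fn1, leaving out 1 tumor gave -0.84 (without Lov A19) to 0.04 (without Lov A50). The count of genes lower at 2-fold with p under 0.02, 1 in the report, was 0 without moderation, with beta-actin as a covariate and without Vhcl A54, Vhcl A59 and Lov A55, and 2 without Lov A19 and Vhcl AB11. Leaving out 1 tumor, it was 0 to 2: 0 without Vhcl A49, A54 or A59 or Lov A50, A55 or AB10, and 2 without Vhcl AB11 or Lov A19. The count lower at p under 0.05, 3 in the report, was 5 without Lov A19 and Vhcl AB11 and 0 without Vhcl A54, Vhcl A59 and Lov A55. It was 2 with beta-actin as a covariate, where Tnc was lost, and without moderation, Vhcl A49, Lov A50 or Lov AB10, where Tgfbi was lost. That of genes higher at p under 0.05, 1 in the report (Sparc), was 0 without moderation, with the mean of a gene's probe sets, with beta-actin as a covariate, without Lov A19 and Vhcl AB11, without Vhcl A54, Vhcl A59 and Lov A55, and without Vhcl A45, Vhcl AB11, Lov A19 or Lov A55, so that leaving out 1 tumor gave 0 to 1. The higher count among the 81 other genes, 4 in the report, was 2 to 8 with 1 tumor left out. The causes were not tested. The tumor labels carry no replicate numbers shared between groups. No paired analysis was possible because of this. Dim probe sets, such as the other ones of Tnc and Fn1, limit what a difference there shows.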
